A study of Mus musculus with 6 samples.

Results

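Genes that make, move, break down and sense prostaglandins were followed here, 10 in all: Pla2g4a, Abhd2, Ptgs1, Ptgs2, Ptges, Ptges2, Ptgis, Slco2a1, Hpgd and Ptger4. They are 10 of the 53465 genes in the count matrix and were chosen by symbol with their PTZ and PBS levels already known. Their difference between the groups is therefore a description and carries no test of its own. All are protein-coding, and their positions below are those of GENCODE M21 on GRCm38. The libraries came from brain endothelial cells of the cortex of male mice, aged 8-12 weeks, all of the genotype tie2-Cre; ai9; rpl22HA/HA. Tie2-Cre acts in endothelium and also in part of the blood lineage, ai9 is a fluorescent reporter switched on by Cre, and rpl22HA is a tagged ribosomal protein. Mice received pentylenetetrazol (PTZ), a blocker of GABA-A receptors that provokes seizures, or phosphate buffered saline (PBS). Each group had 3 libraries, numbered 1, 2 and 4. The labels state no dose and no time between injection and collection. They also do not state how cells or ribosomes were isolated, so the levels may be those of RNA bound to tagged ribosomes.

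Prostaglandins are lipid signals made on demand from arachidonic acid. Phospholipases and lipases free the acid from membranes, cyclooxygenases turn it into an unstable intermediate, and terminal synthases turn that into prostaglandin E, prostacyclin and others. A carrier takes the products into cells, a dehydrogenase inactivates them, and receptors coupled to G proteins read them. Brain endothelium is known for making prostaglandin E through Ptgs2 and Ptges during fever, and Ptgs2 is also an activity-induced gene of neurons.

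The promoters of 4 of these genes are shown because their transcripts are set side by side below: both cyclooxygenase genes, Hpgd, which like Ptgs2 was lower in PTZ, and Ptges2, which was higher. Each line gives the 250 bases before the annotated start, from RefSeq on GRCm38.p6. Capitals mark matches to 8 motifs searched on both strands: the cAMP response element or CRE with the letters TGACGTCA, the partial CRE TGACG inside it, the AP-1 motif TGANTCA, the E-box CACGTG, the TATA box TATAAA, the CCAAT box itself, the GC box GGGCGG and, for the single arm of a steroid receptor site, AGAACA.
Ptgs2, chr1:150099781-150100030, plus strand: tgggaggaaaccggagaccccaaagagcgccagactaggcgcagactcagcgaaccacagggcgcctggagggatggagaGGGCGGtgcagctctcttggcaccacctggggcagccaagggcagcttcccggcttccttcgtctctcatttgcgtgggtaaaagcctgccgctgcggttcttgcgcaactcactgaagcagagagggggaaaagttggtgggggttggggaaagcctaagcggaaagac
Ptgs1, chr2:36230176-36230425, plus strand: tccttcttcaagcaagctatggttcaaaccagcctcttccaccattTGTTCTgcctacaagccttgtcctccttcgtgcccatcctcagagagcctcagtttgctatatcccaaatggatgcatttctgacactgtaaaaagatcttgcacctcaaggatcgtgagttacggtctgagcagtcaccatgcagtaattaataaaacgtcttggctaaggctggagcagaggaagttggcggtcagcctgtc
Hpgd, chr8:56294302-56294551, plus strand: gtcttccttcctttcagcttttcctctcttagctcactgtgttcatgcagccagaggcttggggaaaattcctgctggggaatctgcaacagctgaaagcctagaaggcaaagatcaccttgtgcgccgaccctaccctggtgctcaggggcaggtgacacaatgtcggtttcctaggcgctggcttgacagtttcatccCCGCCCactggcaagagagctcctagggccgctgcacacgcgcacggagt
Ptges2, chr2:32395640-32395889, plus strand: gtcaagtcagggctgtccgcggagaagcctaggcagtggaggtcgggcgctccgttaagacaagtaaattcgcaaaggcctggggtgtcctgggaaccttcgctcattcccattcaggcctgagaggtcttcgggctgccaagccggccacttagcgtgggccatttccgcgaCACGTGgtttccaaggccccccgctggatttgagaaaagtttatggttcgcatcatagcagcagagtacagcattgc

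Ptgs2 carries a further site just after its annotated start, shown for its partial CRE and E-box, which overlap by 2 bases and are in capitals.
Ptgs2, chr1:150100035-150100064, plus strand: tcaccactaCGTCACGTGgagtccgcttta
Over windows of 250 bases before to 50 after the start, the E-box was in those of Ptgs2 and Ptges2 and in 7.15% of 32851 promoters. The partial CRE was in Ptgs2 and Abhd2 and in 20.8% of promoters. Neither the full CRE nor the AP-1 motif was in any of the 10 windows found for 9 of the genes, while 1.79% and 7.81% of all promoters held them. The GC box was in Ptgs2, Ptges, Abhd2, Hpgd, Slco2a1 and Ptger4 and in 35.7% of promoters. The TATA box was in the windows of Hpgd, Slco2a1 and Pla2g4a (13.6% of promoters), CCAAT in those of Abhd2, Ptger4 and Pla2g4a (37.4%) and the steroid receptor arm in those of Ptgs1, Ptges and Pla2g4a (19.0%). A match is a match of letters only, and Ptgis had no window in the table. RefSeq starts can differ from the GENCODE positions given below: the windows of Ptges and Slco2a1, and the one of 2 windows of Pla2g4a that holds its matches, lie inside those genes.

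Libraries held 11107481 to 15406967 gene reads. Levels are CPM (counts per 1e+06 reads, with library sizes scaled by the TMM method) and differences are log2 fold changes of PTZ over PBS with a standard error (SE) from edgeR's quasi-likelihood fit. The 10 endothelial markers summed to 7137, 9694 and 8045 CPM in PTZ libraries 1, 2 and 4 and to 6317, 8167 and 6934 CPM in PBS libraries 1, 2 and 4. Both libraries numbered 2 stood apart: 6 venous markers, led by Vwf and Ackr1, summed to 9005 CPM in PTZ library 2 and 8969 CPM in PBS library 2, against 2848 to 4170.2 CPM in the other 4. The adhesion genes Icam1 and Vcam1, picked from that list after their values were seen, showed where those libraries differed from each other. Icam1 had 146.5, 346 and 42.3 CPM in PTZ libraries 1, 2 and 4, against 44.8, 653 and 44.1 CPM in PBS libraries 1, 2 and 4. Vcam1 had 532, 808 and 319 CPM in PTZ, against 369.8, 1881 and 324 CPM in PBS, so that both were highest in PBS library 2. Of 6 arterial markers 5 had a positive fold change. They summed to 757, 1061 and 848 CPM in PTZ and to 440, 653 and 637 CPM in PBS, without overlap. Microglial, fibroblast and mural cell markers each had fold changes of a single sign, but the sums of each list overlapped between the groups. Of 13 microglial markers all had a negative fold change (median -0.53), and they summed to 1799, 2427 and 2837 CPM in PTZ and to 3329, 2738 and 3325 CPM in PBS. Of 7 tested fibroblast markers all were positive (median 1.35), with sums of 271, 88.4 and 289.9 CPM in PTZ and 96.4, 93.1 and 151 CPM in PBS. Of 10 tested mural cell markers all were positive (median 1.23), with sums of 1096, 342 and 1024 CPM in PTZ and 203, 298 and 564 CPM in PBS. Whether each library is a separate animal is not stated, so errors and p-values reflect only differences from library to library and these may be technical. In such bulk libraries fewer cells of a type and less RNA per cell cannot be told apart.

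Ptgs2 and Hpgd were lower in PTZ, and Ptges2 was higher, by more than other members. Ptgs2 averaged 10.1 ± 2.93 CPM in PTZ and 31.1 ± 21.3 CPM in PBS (SD, n = 3 each), Hpgd 5.36 ± 2.09 CPM in PTZ and 15.2 ± 8.59 CPM in PBS, and Ptges2 33.7 ± 11.5 CPM in PTZ and 18.02 ± 10.2 CPM in PBS. Ptgs1, Ptgis, Ptges, Pla2g4a, Abhd2, Slco2a1 and Ptger4 had fold changes of -0.22 to 0.42 on the log2 scale. All 10 members passed the filter on low counts, 3 had a positive and 7 a negative fold change, and their median was -0.15, against 0.03 over the 13768 genes tested. In edgeR's quasi-likelihood test 0 of the 10 members and 0 of 13768 genes (0%) passed an adjusted p of 0.05. At an unadjusted p under 0.05 stood 2 members, Ptgs2 and Hpgd, both lower, where 3.38% of all genes tested stood lower at that p. Ptges2, which was higher, had an unadjusted p of 0.0546 in the quasi-likelihood test, so this count depends on the tool and on the setting. Its unadjusted p was 0.0426 in DESeq2, 0.0303 in limma-voom and 0.0457 in edgeR's exact test. At an adjusted p of 0.05 these 3 each called 0 members too, and called 0.552%, 0.00726% and 0.414% of all genes tested. Without the filter on low counts the quasi-likelihood test called 1 member, Ptgs2 (log2 fold change -1.67), and called 0.127% of 34777 genes lower in PTZ.

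**Figure D1:**
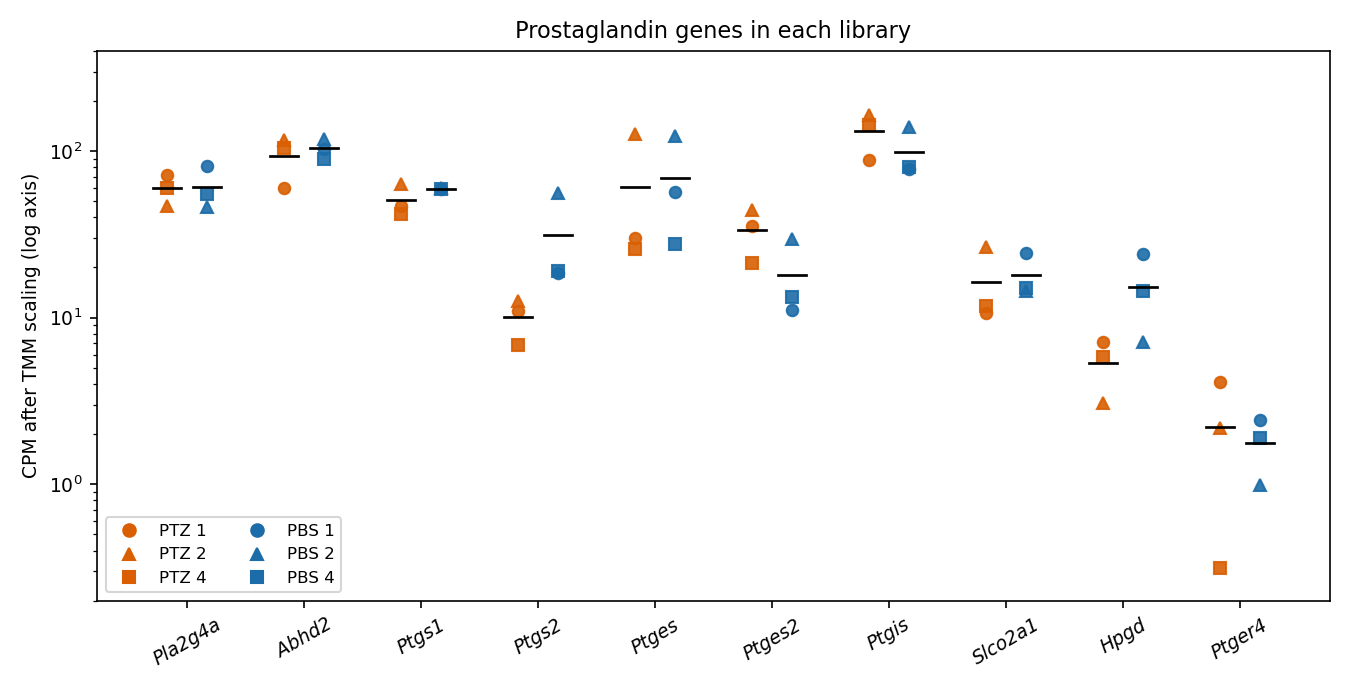
CPM after TMM scaling (log axis) of the 10 prostaglandin genes in each library, PTZ in orange and PBS in blue, with a line at the mean and a symbol for each replicate number. For Ptgs2 all 3 PTZ libraries lie below all 3 PBS libraries, and for Ptges the 2 libraries numbered 2 lie far above the others.

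Cyclooxygenases catalyse the committed step. Ptgs2 (ENSMUSG00000032487, chr1:150100031-150108227, plus strand), the inducible enzyme, had 10.9, 12.5 and 6.82 CPM in PTZ libraries 1, 2 and 4, against 18.6, 55.8 and 19.05 CPM in PBS libraries 1, 2 and 4. Every PTZ library lay below every PBS library, which held for 1 of the 10 members and, in that direction, for 7.04% of all genes tested. The values rest on 149, 126 and 109 reads in PTZ and on 298, 565 and 252 reads in PBS. The log2 fold change was -1.63 (SE 0.47), and the ratio within libraries of equal number, on log2(CPM + 0.5), was -0.74, -2.11 and -1.42 for numbers 1, 2 and 4. PBS library 2 was the highest of all and set much of the size: without it the fold change was -0.94 (SE 0.42), and without both libraries numbered 2 it was -1.09 (SE 0.45). In sum, 9 neuronal markers had 25.6, 81.6 and 29.4 CPM in PTZ and 30.2, 69.5 and 16.9 CPM in PBS. Each sum lay above the Ptgs2 level of its library, except in PBS library 4, but such a sum grows with the number of markers listed. Single markers ranged widely. Camk2a had 24, 407 and 52 reads in PTZ and 252, 275 and 19 reads in PBS. Rbfox3 had 146, 287 and 208 reads in PTZ and 77, 259 and 79 reads in PBS. Tubb3 had 7 reads in all PTZ and 5 in all PBS libraries. The part of neurons in the Ptgs2 level was not tested.

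Ptgs1 (ENSMUSG00000047250, chr2:36230426-36252272, plus strand), the constitutive enzyme, had 46.8, 63.8 and 42.1 CPM in PTZ, against 59.3, 60.0 and 58.95 CPM in PBS. The PBS libraries were nearly equal, and PTZ library 2 lay above all of them, so the groups overlapped. The log2 fold change was -0.22 (SE 0.23), with a range of -0.46 to -0.11 when 1 library was left out. Per kilobase of annotated exon, which allows levels to be compared between genes, Ptgs2 made up 16.5%, 14.2% and 12.1% of cyclooxygenase mRNA in PTZ libraries 1, 2 and 4, and 21.0%, 44.1% and 21.5% in PBS libraries 1, 2 and 4. Ptgs1 was thus the more abundant cyclooxygenase in every library, and all PTZ shares lay below all PBS shares. Ptgs1 is also a gene of platelets and microglia. Of 7 platelet markers 6 had negative fold changes, with sums of 109, 89.6 and 89.2 CPM in PTZ and 120.3, 179 and 115 CPM in PBS, and the part of these cells in the Ptgs1 and Ptgs2 values was not tested.

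**Figure D2:**
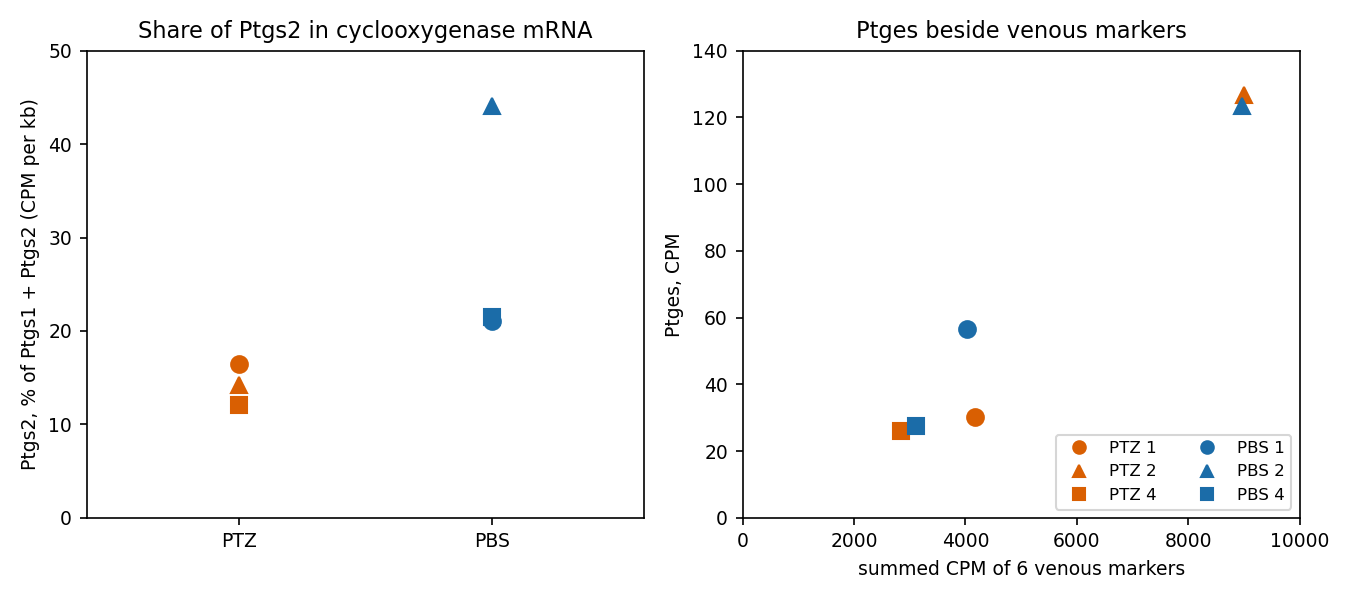
Left, the share of Ptgs2 in the summed Ptgs1 and Ptgs2 level per kilobase, in percent, for each PTZ and PBS library; the 3 PTZ values of 12.1% to 16.5% lie below the 3 PBS values of 21.0% to 44.1%. Right, Ptges in CPM against the summed CPM of 6 venous markers in the same libraries, where both libraries numbered 2 are at the upper right.

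The members Pla2g4a and Abhd2 act on lipids that hold arachidonic acid, and neither differed between the groups by more than its SE. Pla2g4a (ENSMUSG00000056220, chr1:149829618-149961290, minus strand) encodes cytosolic phospholipase A2, which releases arachidonic acid from membranes when calcium rises. It had 71.8, 46.9 and 60.3 CPM in PTZ, against 81.4, 46.3 and 55.2 CPM in PBS. The log2 fold change was -0.03 (SE 0.27). The 2 groups followed the same order over the numbers, with library 1 highest and library 2 lowest in each. Abhd2 (ENSMUSG00000039202, chr7:79273199-79365508, plus strand), a lipid hydrolase that splits the endocannabinoid arachidonoylglycerol in human sperm, had 60.2, 116 and 104 CPM in PTZ, against 103, 119 and 89.1 CPM in PBS. PTZ library 1 was the lowest of the 6 and decided the sign: the fold change was -0.15 (SE 0.27) with it and 0.09 without it. Pla2g4a lies next to Ptgs2 in the genome, with 138740 bases between the 2 genes, which lie on opposite strands with their 5′ ends towards each other, on chromosome 1 (GRCm38). Their values over the libraries differed in pattern.

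Terminal synthases showed different patterns. Ptges (ENSMUSG00000050737, chr2:30889471-30929863, minus strand), the inducible prostaglandin E synthase that pairs with Ptgs2, had 30.2, 127 and 25.9 CPM in PTZ, against 56.5, 123 and 27.7 CPM in PBS. Its level followed the replicate number and not the group, with 127 and 123 CPM in the libraries numbered 2 and 25.9 to 56.5 CPM in the other 4. The summed venous markers were highest in the same 2 libraries, and so were Vwf, Ackr1, Vcam1 and Icam1 each. Slc38a5 and Nr2f2 of that list were not. Slc38a5 had 898 CPM in PTZ library 2 and 955 CPM in PBS library 2, against 1236 CPM in PBS library 4. Nr2f2 had 85.9 CPM in PTZ library 2, below the 88.1 CPM of PBS library 1. The part of venous cells in the Ptges level was not tested. The log2 fold change of -0.19 (SE 0.64) turned to 0.50 without PBS library 2 and to -1.34 without PTZ library 2. Ptges2 (ENSMUSG00000026820, chr2:32395896-32405772, plus strand), a second membrane-associated prostaglandin E synthase, had 35.6, 44.2 and 21.4 CPM in PTZ, against 11.1, 29.7 and 13.2 CPM in PBS. It was higher in PTZ within each number, by 1.64, 0.56 and 0.67 on the log2 scale, while PTZ library 4 lay below PBS library 2, so the groups overlapped. The fold change was 0.91 (SE 0.42) and ran from 0.62 without PTZ library 2 to 1.44 without PBS library 2. Per kilobase Ptges made up 52.2%, 78.7% and 60.9% of both E synthases in PTZ and 86.7%, 84.2% and 72.9% in PBS, with overlap between the groups.

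Ptgis (ENSMUSG00000017969, chr2:167191805-167240604, minus strand), prostacyclin synthase, makes the vasodilator that also keeps platelets from aggregating. It had 88.2, 165 and 143.5 CPM in PTZ, against 77.8, 139 and 80.5 CPM in PBS. Each PTZ library lay above the PBS library of its number, by 0.18, 0.25 and 0.83 on the log2 scale, but PBS library 2 lay above PTZ library 1. The fold change was 0.42 (SE 0.30), with a range of 0.19 to 0.71 when 1 library was left out. Ptgis is also a gene of smooth muscle and fibroblasts, whose markers had higher sums in PTZ libraries 1 and 4 than in any PBS library. In PTZ library 2, where Ptgis was highest, the fibroblast sum was the lowest of all libraries (88.4 CPM). The mural sum there (342 CPM) lay below that of PBS library 4 (564 CPM). The part of these cells in the Ptgis level was not tested. The gene 1110018N20Rik shares 156 exon bases on the opposite strand. Per kilobase Ptgis was the highest of the 10 members, at 51.6 ± 15.5 CPM per kilobase in PTZ and 38.7 ± 13.6 CPM per kilobase in PBS (SD, n = 3 each).

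**Figure D3:**
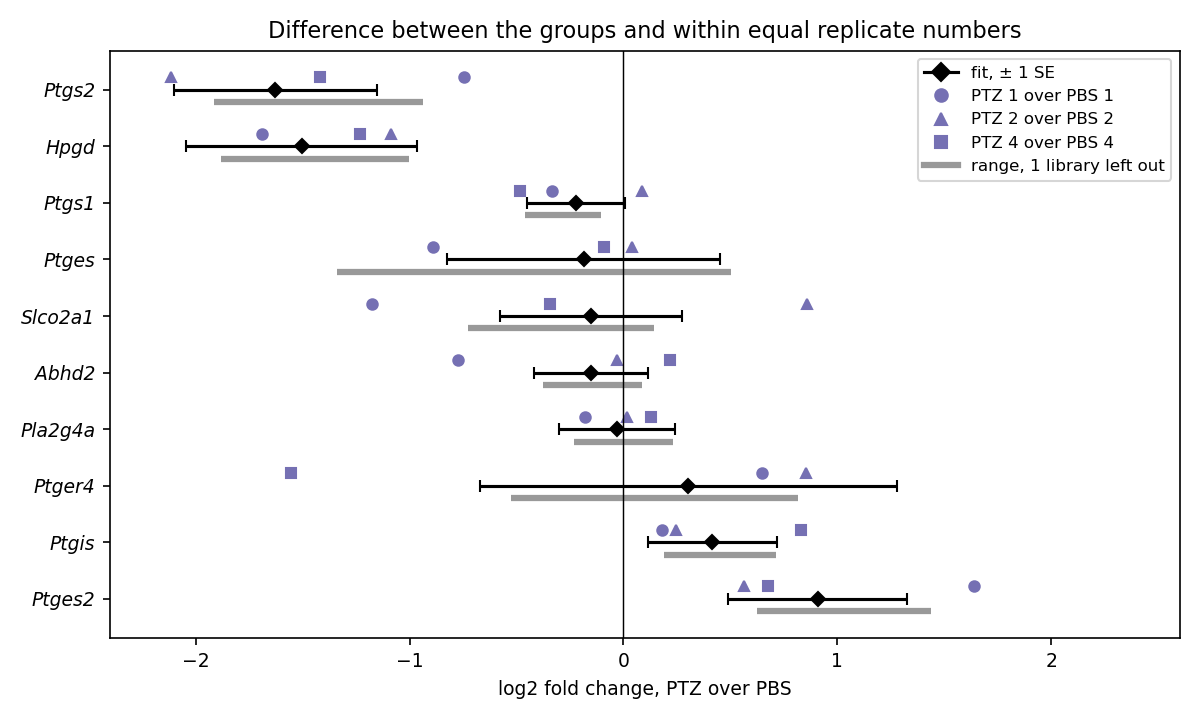
Log2 fold change of PTZ over PBS for each member: the fit with its SE (black), the ratio within libraries of equal number on log2(CPM + 0.5) (purple symbols) and the range of the fit when 1 library is left out (grey). Ptgs2 and Hpgd lie below 0 and Ptges2 and Ptgis above 0 in every one of these values.

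Transport and breakdown end the signal. Hpgd (ENSMUSG00000031613, chr8:56294585-56321043, plus strand), the dehydrogenase that starts prostaglandin inactivation, had 7.17, 3.08 and 5.82 CPM in PTZ, against 24.2, 7.11 and 14.4 CPM in PBS. PTZ library 1 lay just above PBS library 2, and apart from that pair every PTZ value was below every PBS value. The log2 fold change was -1.50 (SE 0.54), with -1.69, -1.09 and -1.23 within numbers 1, 2 and 4, and without PBS library 1 it was -1.001 (SE 0.61). It rests on 98, 31 and 93 reads in PTZ and 388, 72 and 190 reads in PBS. Mean mRNA levels of both Ptgs2 and Hpgd were lower in PTZ, and such counts do not measure the enzymes. The ratio of Ptgs2 to Hpgd per kilobase showed no common direction, with 0.56, 1.49 and 0.43 in PTZ and 0.28, 2.88 and 0.49 in PBS. Slco2a1 (ENSMUSG00000032548, chr9:102988712-103096002, plus strand), the prostaglandin carrier, had 10.6, 26.5 and 11.8 CPM in PTZ, against 24.6, 14.4 and 15.04 CPM in PBS. The libraries were mixed, and the fold change of -0.15 (SE 0.43) changed sign on leaving out PBS library 1 (0.14), PTZ library 1 (0.08) or PTZ library 4 (0.03).

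Ptger4 (ENSMUSG00000039942, chr15:5206661-5244187, minus strand) encodes a prostaglandin E receptor that raises cyclic AMP. It was near the limit of detection, with 56, 22 and 5 reads (4.10, 2.18 and 0.31 CPM) in PTZ and 39, 10 and 25 reads (2.44, 0.99 and 1.89 CPM) in PBS. The PTZ libraries held both the highest and the lowest value, so the groups overlapped fully. Its log2 fold change of 0.30 (SE 0.98) was negative without PTZ library 1 (-0.53), without PBS library 2 (-0.02) and in limma-voom (-0.45), so no direction can be given. Its exons share 1015 bases with Gm15937 and 82 with Ttc33, both on the opposite strand, and reads of such overlaps cannot be told apart without a stated strand setting.

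Most members varied more between replicate numbers than between treatments. Of the sum of squares of log2(CPM + 0.5) over the 6 libraries, the number took 95.4% for Pla2g4a, 92.8% for Ptges and 66.1% for Ptgis. The group took more than the number for Ptgs2 (60.8% and 29.8%), Hpgd (56.0% and 42.0%) and Ptges2 (45.6% and 42.8%). Over all genes tested the medians were 15.8% for the group and 44.9% for the number, and the number has 1 more degree of freedom than the group. Slco2a1 followed neither, with 74.1% left over.

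**Figure D4:**
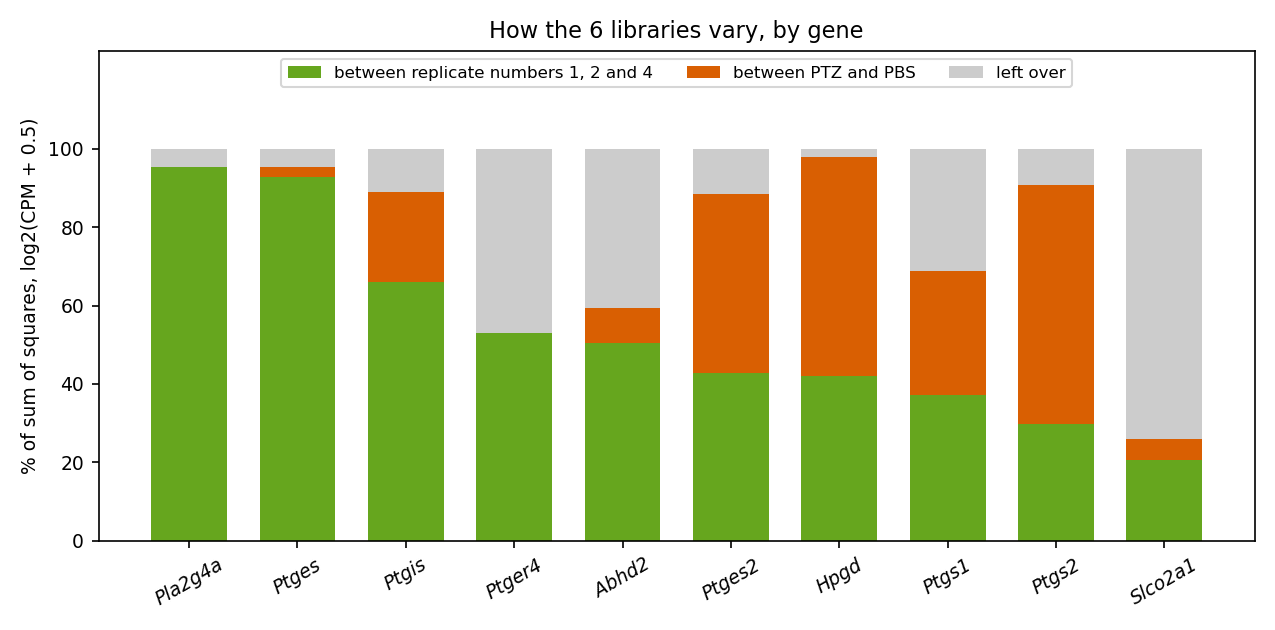
Share of the sum of squares of log2(CPM + 0.5) over the 6 libraries that lies between replicate numbers (green), between PTZ and PBS (orange) and in neither (grey), for each member. Pla2g4a and Ptges are almost all green, and the orange part is largest for Ptgs2, at 60.8%.

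The other genes of the pathway were taken from a list of 61, of which 41 passed the filter on low counts and 20 did not. In edgeR's quasi-likelihood test 0 of them passed an adjusted p of 0.05, and at an unadjusted p under 0.05 stood 1 higher, Pla2g12a, and 1 lower, Cbr1, where 3.83% and 3.38% of all genes tested stood higher and lower. DESeq2, limma-voom and edgeR's exact test called 0 as well. Fold changes were positive for 20 and negative for 21, with a median of -0.05. Pla2g12a, a secreted phospholipase A2, had 15.7, 22.8 and 14.8 CPM in PTZ, against 10.99, 9.18 and 6.95 CPM in PBS (difference of 0.97 on the log2 scale, SE 0.37, edgeR adjusted p = 0.654). It was the 1 tested gene of this list with all PTZ libraries above all PBS libraries, which 7.3% of all genes tested showed. Cbr1, a carbonyl reductase that also acts on prostaglandins, had 57.9, 44.9 and 67.2 CPM in PTZ, against 102, 78.3 and 84.3 CPM in PBS (-0.64, SE 0.23, edgeR adjusted p = 0.648). All PTZ values lay below all PBS values for 4 of the 41 tested genes, Cbr1, Abhd6, Alox5ap and Ltc4s, and for 7.04% of all genes tested.

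Lipid supply held 14 tested genes besides the members, 8 of them with a positive fold change. The highest in CPM over all 6 libraries were Lpcat3, which loads arachidonic acid into membranes (151 ± 41.4 CPM in PTZ, 159 ± 43.4 CPM in PBS), Mgll, the main lipase of arachidonoylglycerol in brain (116 ± 1.96 CPM in PTZ, 99.3 ± 15.7 CPM in PBS), and Abhd6, a second lipase of that substrate (73.3 ± 1.90 CPM in PTZ, 92.98 ± 19.9 CPM in PBS). Among 6 other terminal synthases Ptgds, the lipocalin-type prostaglandin D synthase, was by far the most abundant. It had 561, 911 and 3245 CPM in PTZ, against 972, 578 and 695 CPM in PBS. PTZ library 4 stood above all others and decided the sign: the log2 fold change of 1.07 (SE 0.56) became -0.03 without it. Ptgds is also a gene of meningeal fibroblasts, whose markers had their highest sum in that library (289.9 CPM). That sum was nearly as high in PTZ library 1 (271 CPM), where Ptgds was the lowest of all 6 libraries. The part of these cells was not tested. Ptges3, a chaperone also named prostaglandin E synthase, had 118 ± 28.1 CPM in PTZ and 117 ± 38.8 CPM in PBS, and Akr1b3, an aldose reductase that can make prostaglandin F, 88.6 ± 13.4 CPM in PTZ and 116 ± 26.4 CPM in PBS.

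Of 5 tested breakdown genes besides Hpgd, 4 had a negative fold change, Cbr1 among them. Zadh2, a prostaglandin reductase, had 29.4 ± 3.58 CPM in PTZ and 34.5 ± 2.59 CPM in PBS, and Ptgr2, another, 9.89 ± 4.69 CPM in PTZ and 12.8 ± 2.64 CPM in PBS. Together the 6 listed breakdown genes summed to 110.3, 85.3 and 119 CPM in PTZ and 161, 128 and 142 CPM in PBS, without overlap. Cbr1 held the largest part of each sum, and the groups overlapped for every other gene of these 6. The separation of the sums therefore does not describe the breakdown genes in general. Other carriers named here were far above Slco2a1. Abcc4, an efflux pump for prostaglandin E, had 395, 488 and 292 CPM in PTZ, against 267, 378.5 and 259 CPM in PBS, with a fold change of 0.38 on the log2 scale (SE 0.27). Per kilobase it exceeded Slco2a1 by 78.8, 39.0 and 52.6 times in PTZ libraries and by 23.0, 55.7 and 36.5 times in PBS libraries. These ratios depend on the annotated exon lengths, 6389 bases for Abcc4 and 13545 for Slco2a1, which can overstate the transcripts. The organic anion carriers Slc22a8 (329 ± 119 CPM in PTZ, 340.3 ± 179 CPM in PBS) and Slco2b1 (278 ± 47.6 CPM in PTZ, 242 ± 34.9 CPM in PBS) had overlapping groups as well.

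Most receptor genes had too few reads to test. Of 9 receptor and receptor-associated genes besides Ptger4, 3 passed the filter: Ptgfrn, a negative regulator of the prostaglandin F receptor (55.5 ± 7.94 CPM in PTZ, 49.5 ± 15.1 CPM in PBS), Tbxa2r, the thromboxane receptor (12.8 ± 2.43 CPM in PTZ, 13.5 ± 5.07 CPM in PBS), and Ptgfr, the prostaglandin F receptor (4.58 ± 3.14 CPM in PTZ, 4.79 ± 3.19 CPM in PBS). Ptgir, the prostacyclin receptor, had 28, 0 and 0 reads in PTZ and 2, 2 and 0 reads in PBS. Ptger2 had 0 reads in each PTZ library and 0, 0 and 17 reads in PBS. Such reads in single libraries give no level for a group.

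Per kilobase of exon, by the mean over PTZ libraries, the members ranked from Ptgis through Ptges, Ptgs1, Pla2g4a and Abhd2 to Slco2a1 and Ptger4. Ptges averaged 15.5 ± 14.5 CPM per kilobase in PTZ and 17.6 ± 12.5 CPM per kilobase in PBS, Ptgs1 13.1 ± 2.95 in PTZ and 15.3 ± 0.14 in PBS, Pla2g4a 9.34 ± 1.95 in PTZ and 9.54 ± 2.86 in PBS, and Abhd2 8.84 ± 2.79 in PTZ and 9.81 ± 1.41 in PBS, all per kilobase. These 4 neighbours did not differ beyond their spread, apart from Ptgs1, whose PBS values lay above all PBS values of Pla2g4a and Abhd2. Hpgd, Ptgs2 and Ptges2 ranked differently in the groups: Ptges2 led in PTZ with 6.67 ± 2.27 CPM per kilobase, against 3.18 ± 1.24 for Hpgd and 2.20 ± 0.64 for Ptgs2, and came last in PBS with 3.56 ± 2.01, against 9.05 ± 5.11 for Hpgd and 6.80 ± 4.66 for Ptgs2. Within PTZ the range of Ptges2 lay above that of Ptgs2, and the ranges of the other pairs of these 3 genes overlapped, as did those of all pairs in PBS. The lengths are unions of all annotated exons, up to 13545 bases for Slco2a1, and can overstate the transcript where few isoforms are made.

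**Figure D5:**
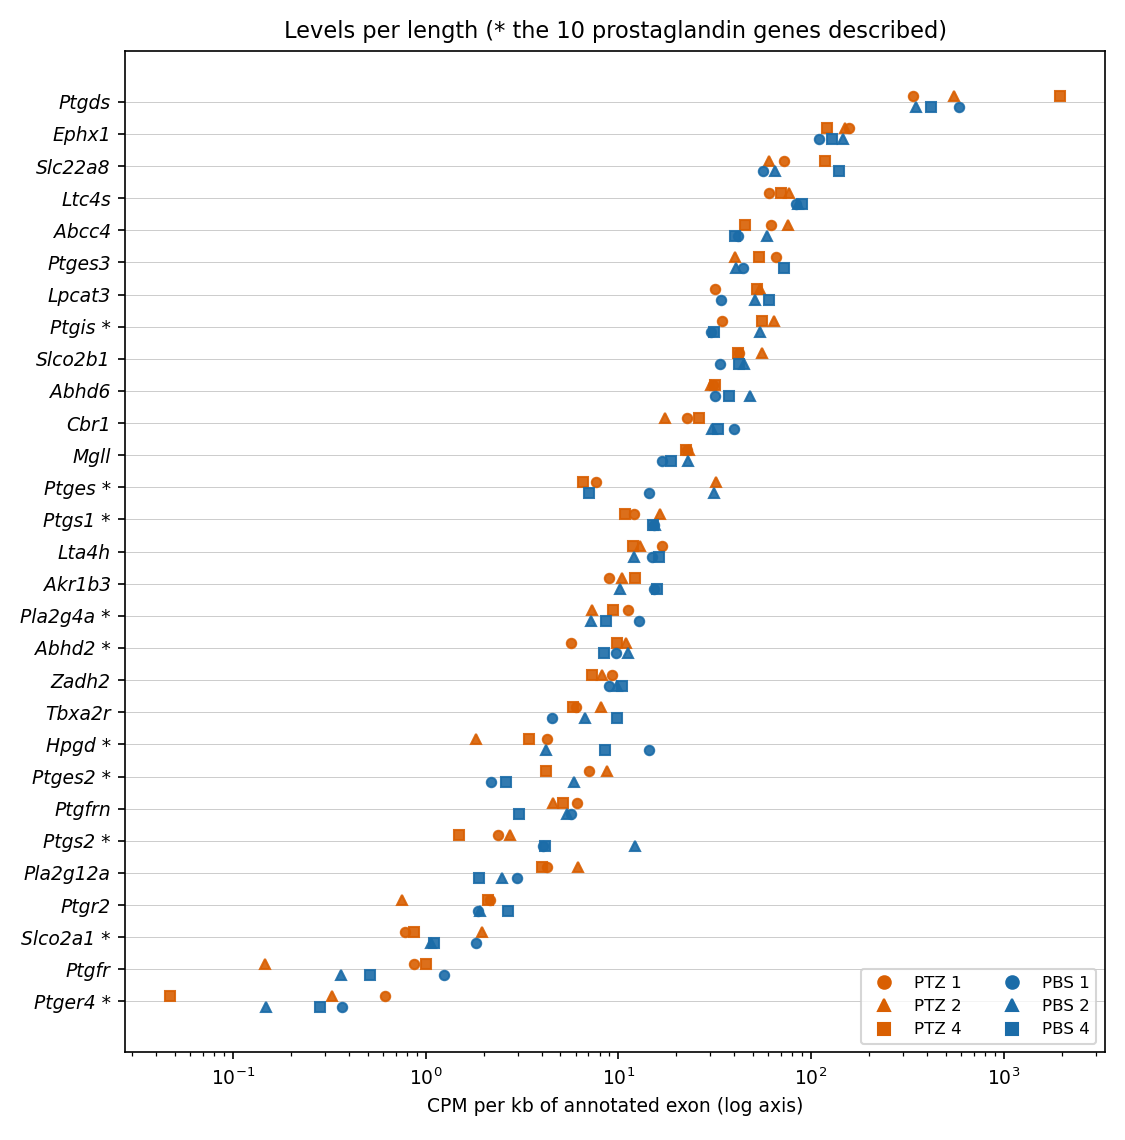
CPM per kilobase of annotated exon (log axis) in each library for the 10 members, marked with a star, and 19 other pathway genes, PTZ in orange above PBS in blue. Ptgds is highest and Ptger4 lowest, and Ptgis is the highest of the 10 members.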

How the data were processed

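What the authors deposited were raw counts per Ensembl gene (53465 genes, 6 columns, per the file headers) and, for each library, a scaled signal. That signal is the count divided by 1 factor per library: multiplied by the factor, 100% of values lay within 0.01 reads of the count. Tools listed in the submitters' processing notes are TopHat2 2.1.1, HTSeq, CASAVA and edgeR, with the build GRCm38, but not what each did. No source used here gives the annotation or the strand setting. The 5 summary rows, 16.1% to 22.9% of reads, stayed out. Their share was highest in PTZ library 1, where reads in no annotated feature made up 9.34%, against 2.99% to 5.19% in the other libraries. Symbols, positions and exon lengths came from GENCODE M21 on GRCm38, with 179 of 181 listed symbols matched. The other 2 are newer names of matched genes.

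Counts were filtered with filterByExpr (minimum count 10, minimum total 15; 13768 genes kept), TMM-scaled with factors of 0.864 to 1.14, and compared by the quasi-likelihood test of edgeR 4.0.16, 2-sided, Benjamini-Hochberg over all genes, in R 4.3.3. SE is the fold change over the root of the F statistic. limma 3.58.1 and DESeq2 1.42.0 were alternatives. Within each group, every pair of libraries differed by more than sampling noise (chi-square per degree of freedom 43.8 to 99.1).

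The groups share numbers 1, 2 and 4 from the titles. Once group means were taken out, libraries of equal number correlated at 0.19, 0.24 and 0.25, over 0.1 in each, so ratios within numbers are also given. The main fit has no block, so its SEs also hold differences between numbers, and the block was an alternative. With the block the SE was smaller for every member except Ptger4. The fold changes were then -1.47 (SE 0.34) for Ptgs2, -1.43 (SE 0.40) for Hpgd, 0.98 (SE 0.30) for Ptges2, 0.42 (SE 0.20) for Ptgis and -0.32 (SE 0.24) for Ptges. For Ptger4 it was -0.078 (SE 1.04).

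Members and lists were chosen with earlier results of these data known. Named were all members and, of the other pathway genes, those at an unadjusted p under 0.05 and up to 3 per role by mean CPM. Ptgir, Ptger2, Alox5ap, Alox12, Tubb3, Ttr, Icam1 and Vcam1 were added after their values were seen, as were the shares of variation, the ratios within libraries and the fits without both libraries numbered 2. The most abundant markers per list, by the same rule, were Flt1 and Esam (endothelium), Gja4 and Sema3g (arteries), Spock2 and Mfsd2a (capillaries), Vwf and Ackr1 (veins), Acta2 and Rgs5 (mural cells), Lum and Dcn (fibroblasts), C1qb and C1qa (microglia), Pf4 and Ms4a7 (border macrophages), S100a8 and S100a9 (neutrophils), Ppbp and Itga2b (platelets), Camk2a and Rbfox3 (neurons), Slc1a2 and Slc1a3 (astrocytes) and Kl and Aqp1 (choroid plexus). Oligodendrocyte markers are not reported here. No listed marker was at 0 reads in all libraries.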

Additional observations from a re-analysis of the deposited data

How the results depend on the processing

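The quasi-likelihood test called 0 genes and 0 members in the main design, with other scalings, with a mean of at least 1 CPM and with the replicate block, which changed no call (Ptgs2 -1.47, SE 0.34). DESeq2 called 76 genes, the exact test 57, limma-voom 1, the test without a low-count filter 121 (1 member), without both libraries numbered 2 it called 3, and leaving out 1 library gave 0 to 8, the 8 without PBS replicate 2. None of these called another pathway gene. Genes with groups that do not overlap numbered 1974 and, with 1 library left out, 2980 to 4324, or 6224 without both libraries numbered 2, where fewer libraries leave more genes apart by construction.

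Ptgs1, Ptgs2, Hpgd, Ptges2 and Ptgis kept their sign in all 16 alternatives. Fold changes that changed sign with 1 library left out ran from -0.23 to 0.23 for Pla2g4a, -0.37 to 0.087 for Abhd2, -1.34 to 0.50 for Ptges, -0.73 to 0.14 for Slco2a1, -0.53 to 0.81 for Ptger4, -0.28 to 0.14 for Lpcat3, -0.18 to 0.28 for Ptges3, -0.028 to 1.47 for Ptgds, -0.39 to 0.44 for Slc22a8, -0.47 to 0.63 for Ptgfr, -0.31 to 0.22 for Tbxa2r, -0.10 to 0.32 for Ptgfrn and -0.21 to 0.042 for Lta4h. Other reversals were Pla2g4a and Slc22a8 by library totals (0.0040 and 0.0021), Ptger4 and Slc22a8 in limma-voom (-0.45 and 0.0011) and with the replicate block (-0.078 and 0.011), Ptges3 with DESeq2's size factors (-0.0018), in DESeq2 (-0.0018), by the authors' scaling (-0.058) and without the filter (-0.036), and Ptgfr without both libraries numbered 2 (0.086). The causes were not tested. Depth limits Ptger4, with 5 to 56 reads per library.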

Other observations

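Other branches of arachidonic acid use arachidonate without a cyclooxygenase, and 8 of their 10 listed genes passed the filter. Of these 5 had a negative fold change, and 0 passed in edgeR's quasi-likelihood test, over all genes, or stood at an unadjusted p under 0.05. Ltc4s, leukotriene C synthase, had 61.6, 77.9 and 70.7 CPM in PTZ, against 84.9, 86.9 and 90.7 CPM in PBS, a difference of -0.32 on the log2 scale (SE 0.20). Alox5ap, which presents arachidonic acid to the leukotriene-forming lipoxygenase, had 27.9, 20.1 and 26.98 CPM in PTZ, against 29.7, 27.9 and 33.9 CPM in PBS (-0.29, SE 0.26). For both genes all PTZ libraries lay below all PBS libraries, as for 7.04% of all genes tested. Both are also known from microglia and other myeloid cells, and all 13 microglial markers had negative fold changes in these libraries. Their part in these values was not tested.

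Lta4h, which makes leukotriene B, had 84.8 ± 15.9 CPM in PTZ and 88.1 ± 13.1 CPM in PBS (SD, n = 3 each). Ephx1, the microsomal epoxide hydrolase, was the most abundant of the list, with 279 ± 36.99 CPM in PTZ against 251 ± 36.2 CPM in PBS. Alox12, a platelet-type lipoxygenase, had 31.3 ± 11.9 CPM in PTZ and 41.9 ± 8.93 CPM in PBS. The groups overlapped for these 3 genes. Neutrophil markers, 8 of 9 with a negative fold change, summed to 113, 403 and 86.5 CPM in PTZ and 563, 526 and 224 CPM in PBS. The choroid plexus gene Ttr had 1 read over all PTZ libraries and 2 over all PBS libraries.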
